A study of Mus musculus with 12 samples.

Results

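The 9 genes described here encode Keap1, Nrf2 and the proteins that work most closely with them: *Keap1*, *Cul3*, *Rbx1*, *Nfe2l2*, *Nfe2l1*, *Bach1*, *Mafg*, *Mafk* and *Sqstm1*. They were chosen by gene identity, and their 12 probes, found through the transcript accession of each probe, were taken from 41174 probes that stand for 32301 genes or transcripts. *Nfe2l2* has 2 probes and *Rbx1* has 3, and each of the other genes has 1. The 12 probes were well above background on all 12 arrays, so every gene passed the filter on dim probes in every group.

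Keap1 is a cysteine-rich adaptor that holds the transcription factor Nrf2 and presents it to a ubiquitin ligase built on Cul3 and Rbx1, so that Nrf2 is degraded in unstressed cells. Electrophiles and oxidants modify the cysteines of Keap1, Nrf2 then accumulates, pairs with a small Maf protein and binds antioxidant response elements (AREs) in genes for detoxification, glutathione synthesis and NADPH supply. Bach1 competes for the same elements, and p62, the product of *Sqstm1*, binds Keap1 and takes it to autophagosomes. In macrophages this pathway is known for its link between redox state and the inflammatory response.

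Bone marrow-derived macrophages (BMDMs) of 8-week-old C57BL/6 mice, grown for 7 days with M-CSF, were compared between 2 genotypes and 3 conditions. The KpCKO mice carry Keap1 flox/flox and LysM-Cre, with Cre expressed from the lysozyme M locus (*Lyz2*) of myeloid cells. Cells were left untreated (Con), or stimulated for 6 h with LPS and IFNγ (M1) or with IL-4 (M2). There were 2 cultures, of male mice in culture 1 and of female mice in culture 2, each with 1 WT and 1 KpCKO mouse, so 4 mice gave 6 groups of 2 arrays. WT mice are not said to carry the floxed allele or Cre, so the effects of these and of the deletion cannot be told apart. The deleted exons are not given in the sources used here, so it is not settled whether the *Keap1* probe lies in the deleted part. These arrays measure RNA only, and in such bulk samples fewer cells of a type and less RNA per cell cannot be told apart. The paper also reports Nrf2 protein, which accumulated in KpCKO BMDMs, and Nrf2 binding by ChIP-seq, neither of which was used here.

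A level is the log2 signal of a probe less log2 of the array's 75th percentile, so that 0 is a signal at that percentile, and the value of culture 1 is given before that of culture 2. A gene passed the test where limma's Benjamini-Hochberg adjusted p over 22376 genes was at most 0.05, in a fit with 6 groups and the culture. The 75th percentile was 548 to 757 intensity units on the WT M1 arrays, 787 to 906 on the KpCKO M1 arrays and 966 to 1166 on the other arrays. Each slide held 1 condition, so slide and condition cannot be told apart, whereas the genotypes were compared within a slide.

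As a check of the cell type, 7 macrophage markers, *Csf1r*, *Adgre1*, *Itgam*, *Lyz2*, *Fcgr1*, *Mertk* and *Cd14*, were well above background on all arrays. Their summed signal, in multiples of the 75th percentile, was lower in KpCKO, at 405 to 469 against 583 to 639 in Con, 560 to 661 against 833 to 1041 in M1 and 414 to 452 against 488 to 545 in M2. Of the 7 markers, *Cd14* passed limma's test as lower in KpCKO in Con and M2, and 4 passed in M1. Between genotypes 2.21% of all genes passed in either direction in Con, 16.0% in M1, 1.93% in M2 and 17.2% over the 3 conditions. *Lyz2*, the locus that drives Cre and 1 of the 7 summed markers, was lower by a log2 difference of −0.71 over the 3 conditions (adjusted p = 0.0256, limma). In M1 its level was 6.87 and 5.86 in WT against 5.83 and 5.90 in KpCKO, so it was not lower in culture 2. KpCKO mice carry Cre at this locus, so for *Lyz2* the Cre allele and the cell type cannot be told apart. The sums of neutrophil markers ran from 5.56 to 18.2 and overlapped between genotypes in each condition, while of 8 tested markers 1 passed as higher in KpCKO in M1, 1 as higher in M2, and 2 as higher and 1 as lower over the 3 conditions. The sums of dendritic cell markers were 1.05 to 1.31 in KpCKO M1 against 1.41 to 2.32 in WT M1, where 1 of 6 passed as lower, and between 0.316 and 0.710 in the other groups. Sums of lymphocyte markers ran from 0.0658 to 0.612 and those of stromal markers from 22.7 to 54.3. The part of cell composition in the differences below was not tested.

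The promoter windows of 5 of these genes are shown because their transcripts differed between WT and KpCKO in at least 1 comparison below. They are the 250 bases before the start of the RefSeq transcript, 5′ to 3′ on the strand of the gene (GRCm38.p6), with capitals at a match to TGACNNNGC or TGAGNNNGC, the core of the ARE, searched on both strands. The windows are *Keap1* at chr9:21239333-21239582 (minus strand), *Nfe2l2* at chr2:75704664-75704913 (minus), *Mafg* at chr11:120633548-120633797 (minus), *Mafk* at chr5:139791286-139791535 (plus) and *Sqstm1* at chr11:50210821-50211070 (minus).
Keap1: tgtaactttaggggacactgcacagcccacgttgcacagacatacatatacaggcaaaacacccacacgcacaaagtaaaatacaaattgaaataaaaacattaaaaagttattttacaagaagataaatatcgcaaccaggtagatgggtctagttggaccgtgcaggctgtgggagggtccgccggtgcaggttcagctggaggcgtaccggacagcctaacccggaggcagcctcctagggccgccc
Nfe2l2: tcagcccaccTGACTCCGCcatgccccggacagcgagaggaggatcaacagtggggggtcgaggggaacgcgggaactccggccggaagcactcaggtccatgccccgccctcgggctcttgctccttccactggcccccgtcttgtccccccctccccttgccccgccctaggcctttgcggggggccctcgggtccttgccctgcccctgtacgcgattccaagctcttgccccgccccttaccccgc
Mafg: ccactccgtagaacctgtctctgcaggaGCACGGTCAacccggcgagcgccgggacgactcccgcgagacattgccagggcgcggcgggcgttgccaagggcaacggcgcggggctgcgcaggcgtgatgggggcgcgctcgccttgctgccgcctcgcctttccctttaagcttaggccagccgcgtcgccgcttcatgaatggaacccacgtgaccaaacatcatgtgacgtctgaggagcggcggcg
Mafk: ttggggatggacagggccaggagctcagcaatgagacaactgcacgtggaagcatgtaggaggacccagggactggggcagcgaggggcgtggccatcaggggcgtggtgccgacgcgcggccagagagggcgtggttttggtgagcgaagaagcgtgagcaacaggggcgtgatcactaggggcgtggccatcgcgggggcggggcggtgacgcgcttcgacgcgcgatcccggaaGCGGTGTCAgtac
Sqstm1: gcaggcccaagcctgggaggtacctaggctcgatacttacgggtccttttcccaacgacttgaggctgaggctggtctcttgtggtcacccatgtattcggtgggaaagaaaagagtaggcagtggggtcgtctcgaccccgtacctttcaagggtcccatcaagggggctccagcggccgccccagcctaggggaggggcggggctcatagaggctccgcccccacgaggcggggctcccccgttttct

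The ARE core was found in 7 of the 13 windows of the 9 genes, and in at least 1 window of 4 of them. The match lay 240 to 232 bases before the start in *Nfe2l2*, 222 to 214 in *Mafg* and 13 to 5 in *Mafk*, in the latter both on the strand opposite to the gene. *Nfe2l1* has 5 windows, some of them overlapping, of which 4 held a match. Those lying 11 to 3, 125 to 117 and 207 to 199 bases before their starts are the same site, counted in each window. The same core was present in 23.0% of all 32851 promoter windows, so a match is common. *Keap1* and *Sqstm1* held none of these letters in this window. *Sqstm1* held a match to the consensus of the κB site, 18 to 9 bases before the start, as did 7.25% of all windows. These matches describe letters, and the arrays do not measure binding.

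*Keap1*, the deleted gene, was lower in KpCKO on every array. Its level was 3.26 and 3.16 in WT Con against 1.79 and 1.71 in KpCKO Con, 4.28 and 4.80 in WT M1 against 2.61 and 3.04 in KpCKO M1, and 3.07 and 2.85 in WT M2 against 1.37 and 0.94 in KpCKO M2. In each condition both KpCKO arrays lay below both WT arrays, and the probe stayed well above background in KpCKO. The signal that remained was 36.5% of WT in Con (log2 difference −1.46, SE 0.238, adjusted p = 0.0336), 30.5% in M1 (−1.71, adjusted p = 0.0077) and 28.5% in M2 (−1.81, adjusted p = 0.0162, limma). Over the mean of the 3 conditions it was 31.7% (−1.66, SE 0.138, adjusted p = 0.000705). The Con value is the least firm, since its call was lost under 8 of 23 other settings (adjusted p up to 0.225), among them the removal of any 1 of the 4 Con arrays.

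**Figure D1:**
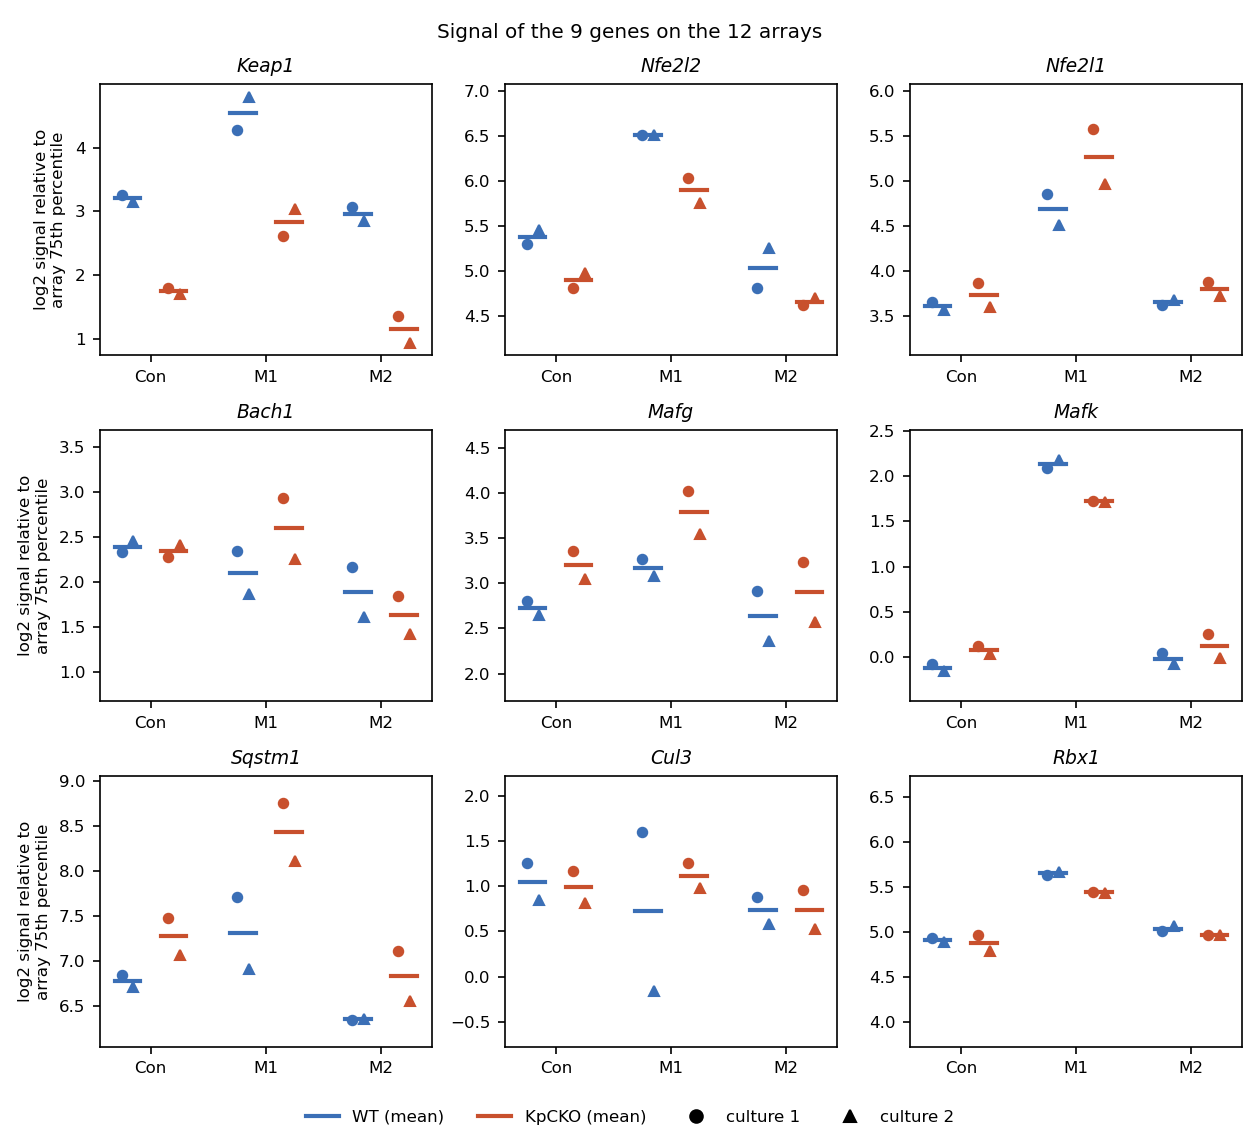
Level of the 9 genes on each of the 12 arrays (log2 signal relative to the array's 75th percentile) in the 6 groups, with circles for culture 1, triangles for culture 2 and lines for group means. *Keap1* ran from 0.94 to 3.04 in KpCKO and from 2.85 to 4.80 in WT, and *Mafk* was between −0.16 and 0.25 in Con and M2 and between 1.72 and 2.18 in M1.

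*Keap1* RNA also moved with the stimulus, in both genotypes. From Con to M1 it rose 2.53-fold in WT, by 1.03 and 1.65 on the log2 scale in the 2 cultures (adjusted p = 0.00239, limma), and 2.11-fold in KpCKO, by 0.82 and 1.33 (adjusted p = 0.00845). The order of the group means was KpCKO M2, KpCKO Con, KpCKO M1, WT M2, WT Con and WT M1, from low to high. Among neighbours in this order only KpCKO M1 and WT M2 overlapped in their arrays. After IL-4 the level was 0.25 lower than Con in WT and 0.60 lower in KpCKO on the log2 scale, and neither passed the test (limma, adjusted p = 0.525 and 0.164).

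*Cul3*, the scaffold of the ligase that Keap1 joins, and *Rbx1*, the RING subunit that recruits the ubiquitin-loaded enzyme, passed no test between genotypes. *Rbx1* had levels between 4.79 and 5.06 in Con and M2 in both genotypes, 5.64 and 5.66 in WT M1 and 5.44 in both KpCKO M1 cultures. Its genotype difference over the 3 conditions was −0.10 (95% interval −0.23 to 0.02, adjusted p = 0.231, limma). From Con to M1 *Rbx1* rose 1.67-fold in WT (adjusted p = 0.000498) and 1.48-fold in KpCKO (adjusted p = 0.00251), whereas under quantile normalization the WT difference turned to −0.01 and the KpCKO difference was 0.06, neither past the test. The other 2 probes of *Rbx1* gave log2 differences of 0.77 and 0.53 from Con to M1 in WT.

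*Cul3* levels in WT M1 were 1.60 and −0.16, the widest gap between cultures among the 9 genes. The other groups had 1.26 and 0.85 (WT Con), 1.17 and 0.81 (KpCKO Con), 1.25 and 0.98 (KpCKO M1), 0.88 and 0.58 (WT M2) and 0.95 and 0.52 (KpCKO M2). The 2 WT M1 arrays were thus the highest and the lowest of all 12, and every pair of groups next to each other in order of their means overlapped. The difference between KpCKO and WT in M1 was −0.35 in culture 1 and 1.14 in culture 2 (mean 0.40, SE 0.357, adjusted p = 0.465, limma). Its value rested on single arrays. With culture 1 of WT M1 left out the difference was 1.10, and the change from Con to M1 in WT turned its direction with the array, at −1.03 with culture 1 of WT M1 left out and 0.37 with culture 2 left out. All 3 passed limma's test, which then takes the spread of the lone WT M1 array from the other groups and does not see the gap between the 2 WT M1 arrays, so these calls are not firm.

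*Nfe2l2*, the gene of Nrf2, was lower in KpCKO. Its level was 5.30 and 5.46 in WT Con against 4.82 and 4.98 in KpCKO Con, 6.51 on both WT M1 arrays against 6.03 and 5.76 in KpCKO M1, and 4.81 and 5.25 in WT M2 against 4.63 and 4.70 in KpCKO M2. The genotypes did not overlap within any condition. The level in KpCKO was 71.4% of WT over the 3 conditions (log2 difference −0.49, SE 0.0933, adjusted p = 0.0155, limma) and 65.3% in M1 (−0.62, SE 0.162, adjusted p = 0.0455). In Con (−0.48, adjusted p = 0.240) and M2 (−0.37, adjusted p = 0.370) the difference had the same sign in both cultures and did not pass the test. The second probe gave −0.65 in M1 and −0.52 over the 3 conditions, with adjusted p over all probes of 0.0310 and 0.00911. The M1 call was lost under 15 of 23 other settings, with a difference of −0.35 under quantile normalization.

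M1 stimulation raised *Nfe2l2* RNA in both genotypes. The rise was 2.19-fold in WT (1.21 and 1.06 on the log2 scale, adjusted p = 0.000841, limma) and 1.99-fold in KpCKO (1.21 and 0.78, adjusted p = 0.00214). All 4 M1 arrays lay above all 8 Con and M2 arrays. Under quantile normalization the WT rise was 0.30 and no longer passed the test (adjusted p = 0.153), and the KpCKO rise was 0.47.

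*Nfe2l1* encodes Nrf1, a relative of Nrf2 in the endoplasmic reticulum membrane that governs proteasome genes. Its level was 3.66 and 3.56 in WT Con against 3.87 and 3.61 in KpCKO Con, 4.86 and 4.51 in WT M1 against 5.57 and 4.96 in KpCKO M1, and 3.62 and 3.68 in WT M2 against 3.88 and 3.72 in KpCKO M2. Both KpCKO M1 arrays lay above both WT M1 arrays, and the genotypes overlapped in Con. From Con to M1 it rose 2.10-fold in WT (adjusted p = 0.00103) and 2.89-fold in KpCKO (adjusted p = 0.000324, limma), and both calls held under all 23 other settings. The genotype difference in M1 was 0.58 and missed the threshold (adjusted p = 0.0512). It passed under 6 other settings, 1 of them quantile normalization (0.70, adjusted p = 0.0294).

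*Bach1*, the gene of the repressor that competes with Nrf2 at AREs, passed none of the tests. Its level was 2.33 and 2.46 in WT Con against 2.28 and 2.41 in KpCKO Con, 2.34 and 1.87 in WT M1 against 2.94 and 2.25 in KpCKO M1, and 2.17 and 1.61 in WT M2 against 1.85 and 1.43 in KpCKO M2. All neighbours in the order of group means overlapped. The KpCKO M1 value exceeded WT by 0.60 in culture 1 and 0.38 in culture 2 (mean 0.49, 95% interval −0.05 to 1.03, adjusted p = 0.179, limma). Against Con the M2 level differed by −0.71 in KpCKO (95% interval −1.24 to −0.17, adjusted p = 0.100) and −0.51 in WT (adjusted p = 0.175).

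The small Maf proteins MafG and MafK have a DNA-binding domain and no activation domain, and pair with Nrf2 or Bach1. *Mafg* was higher in KpCKO, with levels of 2.81 and 2.65 in WT Con against 3.35 and 3.04 in KpCKO Con, 3.27 and 3.08 in WT M1 against 4.03 and 3.54 in KpCKO M1, and 2.92 and 2.36 in WT M2 against 3.24 and 2.57 in KpCKO M2. The genotypes did not overlap in Con and M1 and overlapped in M2, where each KpCKO array was still above the WT array of its culture. The rise was 1.37-fold over the 3 conditions (log2 difference 0.45, SE 0.0855, adjusted p = 0.0151, limma) and 1.53-fold in M1 (0.61, SE 0.148, adjusted p = 0.0374), whereas 0.47 in Con and 0.27 in M2 did not pass. The M1 call was lost under 14 of 23 other settings, and without the culture in the fit the adjusted p was 0.241 in M1 and 0.144 over the 3 conditions. With the M1 stimulus *Mafg* rose 1.36-fold in WT (adjusted p = 0.0341) and 1.50-fold in KpCKO (adjusted p = 0.0147), and both calls were lost under quantile normalization, at 0.06 and 0.24 on the log2 scale.

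*Mafk* had the largest response to M1 of the 9 genes and in M1 was lower in KpCKO. Its level was −0.08 and −0.16 in WT Con against 0.12 and 0.03 in KpCKO Con, 2.09 and 2.18 in WT M1 against 1.72 on both KpCKO M1 arrays, and 0.04 and −0.08 in WT M2 against 0.25 and −0.01 in KpCKO M2. All 4 M1 arrays lay above the other 8, and within M1 both KpCKO arrays lay below both WT arrays. The rise from Con to M1 was 4.77-fold in WT (adjusted p = 9.74e-06, limma) and 3.13-fold in KpCKO (adjusted p = 5.16e-05), and both calls held under all 23 other settings, quantile normalization included (2.12 and 1.58 on the log2 scale). In M1 the KpCKO level was 75.1% of WT (−0.41, SE 0.108, adjusted p = 0.0451), a call lost under 16 of 23 other settings. In Con KpCKO was higher by 0.20 and 0.19 in the 2 cultures, which did not pass the test (adjusted p = 0.514).

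*Sqstm1*, which encodes the autophagy receptor p62, was higher in KpCKO. Its level was 6.85 and 6.71 in WT Con against 7.48 and 7.07 in KpCKO Con, 7.71 and 6.92 in WT M1 against 8.76 and 8.11 in KpCKO M1, and 6.35 and 6.36 in WT M2 against 7.11 and 6.56 in KpCKO M2. The KpCKO arrays lay above the WT arrays in each condition. The rise was 2.18-fold in M1 (log2 difference 1.12, SE 0.202, adjusted p = 0.0167, limma) and 1.62-fold over the 3 conditions (0.70, SE 0.117, adjusted p = 0.00943), and in Con and M2 the log2 differences of 0.49 and 0.48 did not pass. The M1 call was lost under 4 of 23 other settings, among them the removal of WT M1 culture 2, the removal of KpCKO M1 culture 1 and a fit without the culture (adjusted p = 0.0884).

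The M1 stimulus raised *Sqstm1* 2.23-fold in KpCKO, by 1.28 and 1.04 on the log2 scale (adjusted p = 0.003). In WT the change was 0.86 in culture 1 and 0.20 in culture 2 (mean 0.53) and did not pass the test (adjusted p = 0.0543). The KpCKO call was lost under quantile normalization, at 0.63 (adjusted p = 0.0518). The difference between these responses, 0.63 with a 95% interval of −0.05 to 1.31, did not pass its own test (adjusted p = 0.334, limma).

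Read together, 1 of the 9 genes, *Keap1*, passed limma's test between KpCKO and WT in Con, against 2.21% of all genes tested. *Keap1* is the gene deleted by design, so its part in this count and in those below says nothing about the other members. In M1, 5 of 9 passed, against 16.0% of all genes, with *Mafg* and *Sqstm1* higher and *Keap1*, *Nfe2l2* and *Mafk* lower. In M2 *Keap1* alone passed, against 1.93% of all genes. Over the mean of the 3 conditions 4 of 9 passed, *Mafg* and *Sqstm1* higher and *Keap1* and *Nfe2l2* lower, against 17.2% of all genes. The sign of the difference was the same in both cultures of all 3 conditions for 5 of the 9 genes, *Nfe2l1*, *Mafg* and *Sqstm1* higher and *Keap1* and *Nfe2l2* lower, whereas 25.0% of all genes kept 1 sign. With the 3 arrays of a mouse averaged to 1 value, a setting chosen after the data were seen, none of the 4 calls over the 3 conditions held (limma, adjusted p from 0.0940 for *Keap1* to 0.170 for *Mafg*). Under that setting 0 of 22352 genes passed, so the loss is not particular to these members.

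**Figure D2:**
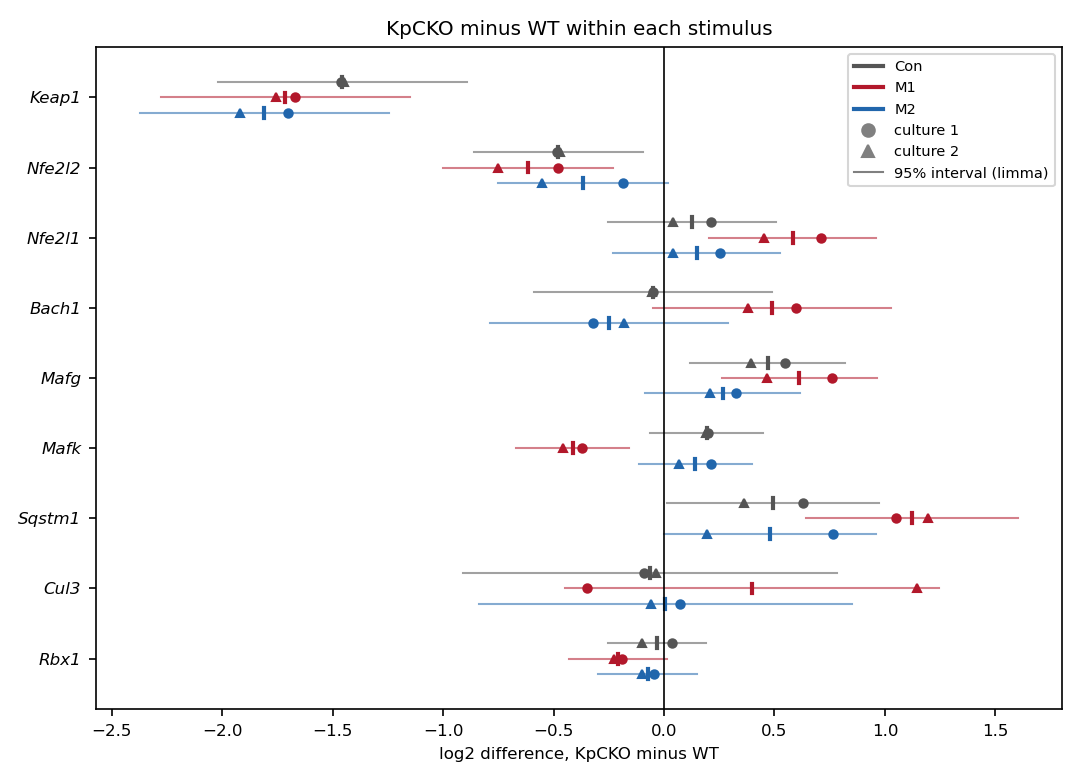
Log2 difference between KpCKO and WT (x axis) of each gene in Con, M1 and M2, with 1 point for each culture, a tick at the mean and the 95% interval of the limma fit as a line. *Keap1* lies between −1.92 and −1.45 in all 6 pairs, *Sqstm1* between 0.19 and 1.20, and *Cul3* in M1 is split between −0.35 and 1.14.

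In the M1 response, 6 of 9 genes passed as higher in WT, where 63.2% of all genes passed in either direction and 34.5% as higher. In KpCKO 7 of 9 passed as higher, where 50.2% passed in either direction and 24.8% as higher. *Keap1*, *Nfe2l2*, *Nfe2l1*, *Mafg*, *Mafk* and *Rbx1* passed in both genotypes and *Sqstm1* in KpCKO. These 7 were higher in both cultures of both genotypes, as were 39.1% of all genes, and no member passed as lower. Scaling mattered here, since the median change of all genes from Con to M1 in WT was 0.13 with the 75th percentile, −0.08 with quantile normalization and 0.40 after a normexp background correction. Under quantile normalization 3 members passed in WT (*Keap1*, *Nfe2l1* and *Mafk*) and 4 in KpCKO (these and *Nfe2l2*). Of all genes 64.8% and 52.8% then passed in either direction.

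**Figure D3:**
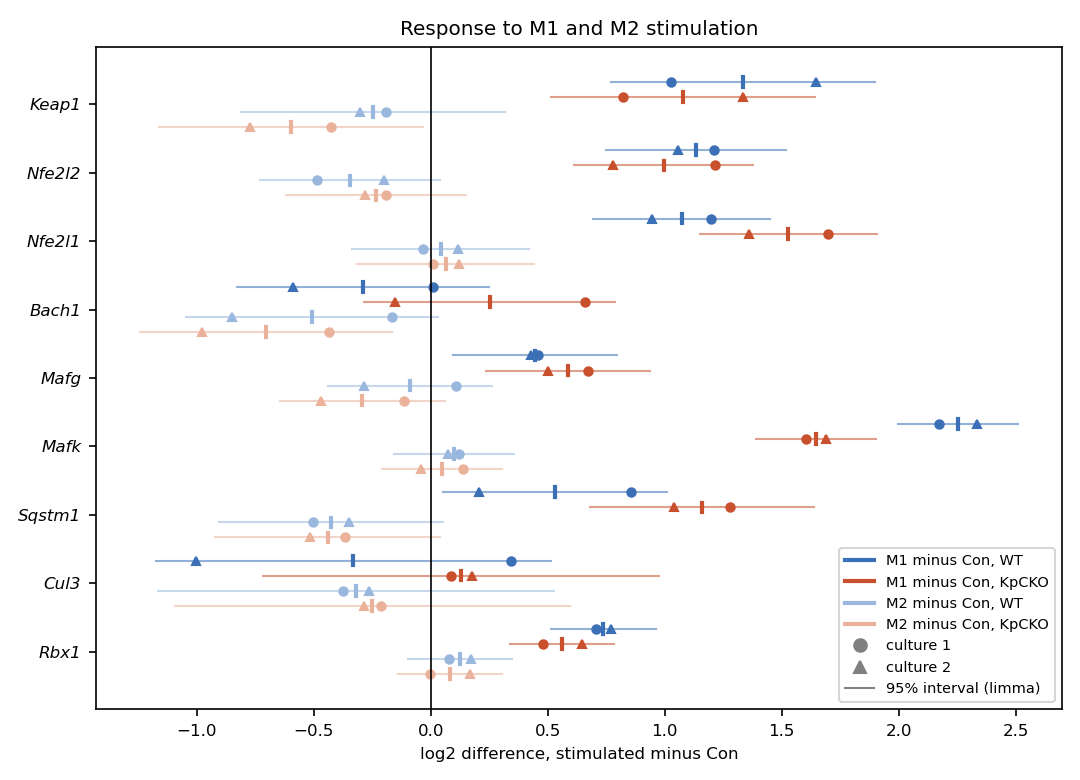
Log2 change from Con to M1 and from Con to M2 (x axis) of each gene in WT and KpCKO, with 1 point for each culture and the 95% interval of the limma fit as a line. In M1 *Mafk* rose by 2.25 in WT and 1.65 in KpCKO and *Rbx1* by 0.74 and 0.56, the WT value of *Rbx1* turning to −0.01 under quantile normalization, whereas all intervals of the M2 change but those of *Keap1* and *Bach1* in KpCKO cross 0.

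IL-4 changed none of the 9 genes past limma's test in either genotype, where 16.8% of all genes passed in WT and 10.2% in KpCKO. At an unadjusted p under 0.05 the count was 0 in WT and 2 in KpCKO (*Keap1* and *Bach1*). Of all genes 7266 of 22372 in WT and 6060 of 22373 in KpCKO were under it, so these 2 are given as values only. The signs leaned one way, with *Keap1*, *Nfe2l2*, *Bach1*, *Sqstm1* and *Cul3* lower in both cultures of both genotypes, as were 30.4% of all genes. The log2 change of *Nfe2l2* was −0.35 in WT and −0.23 in KpCKO by its brighter probe. Its second probe gave −0.52 and −0.36, both at an unadjusted p under 0.05 and neither past the test over all probes (limma, adjusted p = 0.0561 and 0.175). The change of *Sqstm1* was −0.43 in WT and −0.44 in KpCKO. The M1, M2 and genotype comparisons share arrays and are not independent of each other.

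Whether the genotypes responded differently was tested directly. For M1 no member passed limma's interaction test, which 0.0716% of all genes passed. At an unadjusted p under 0.05 there was 1 member, *Mafk*, beside 3664 of 22358 genes. *Mafk* rose less in KpCKO by 0.57 and 0.64 in the 2 cultures (mean −0.61, 95% interval −0.97 to −0.24, adjusted p = 0.170). The difference was 0.46 for *Nfe2l1* (adjusted p = 0.366) and −0.26 for *Keap1* (95% interval −1.06 to 0.54, adjusted p = 0.727). For M2 no member passed, where 0.00894% of all genes did. None had an unadjusted p under 0.05, where 451 of 22371 genes did.

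As a readout of Nrf2 activity, 15 of its known target genes were examined. *Nqo1*, a quinone reductase, had levels between −2.45 and −1.58 on the 6 WT arrays and between 1.07 and 1.79 on the 6 KpCKO arrays. In KpCKO 11 of the 15 genes passed as higher in Con, 11 in M1 and 9 in M2, and none as lower, where 1.39%, 7.41% and 1.28% of all genes passed as higher. The median log2 differences of the list were 1.33, 1.01 and 1.47. *Nqo1* rose by 3.23 in Con, 3.50 in M1 and 3.52 in M2, *Slc7a11*, the cystine transporter subunit, by 3.17 in Con, 1.30 in M1 and 2.83 in M2, and *Me1*, an NADPH-making enzyme, by 1.97 in M1. *Hmox1*, heme oxygenase 1, did not pass, and its difference in M1 was 0.58 in culture 1 and −0.87 in culture 2. In WT 9 of the 15 passed as higher in M1 than in Con, where 34.5% of all genes did, led by *Slc7a11* (5.37), *Txnrd1* (2.66) and *Prdx1* (2.29), while *Nqo1* changed by −0.04 and did not pass. From Con to M2 5 of the 15 passed as lower in WT and 3 in KpCKO, and none as higher. Of all genes 1835 of 22372 and 1013 of 22373 passed as lower there. The median changes of the list were −0.46 and −0.43, beside −0.01 and 0.01 for all genes.

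Relatives of these factors in the CNC and Maf families changed as well. *Maf*, the gene of c-Maf, had levels of 1.56 and 2.49 in KpCKO M1 against 3.51 and 4.22 in WT M1, a log2 difference of −1.84 (adjusted p = 0.00926). *Maff*, the remaining small Maf gene, went from −1.15 and −0.93 in WT Con to 5.01 and 4.72 in WT M1 and did not differ between genotypes past the test. *Nfe2*, the founding CNC factor, was higher in KpCKO Con by 2.07 (adjusted p = 0.0444), at −2.56 and −1.45 against −4.05 and −4.09. In M2 none of the relatives measured passed between genotypes, and 2 had an unadjusted p under 0.05, as did 3196 of 22371 genes.

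None of the 59 genes of the other 5 lists passed limma's test between genotypes in Con or in M2, and 4 in each had an unadjusted p under 0.05, as did 3155 of 22376 genes in Con and 3196 of 22371 in M2. The shares of all genes that passed there were 2.21% and 1.93%. In M1 11 of the 59 (18.6%) passed, a share near the 16.0% of all genes, so that the genes below are given as values and not as a result about the lists. Of these, 3 of 12 autophagy receptor and Atg8 genes passed as higher in KpCKO and none as lower, *Gabarapl1*, an Atg8 family member, by 1.43, *Calcoco1*, a selective autophagy receptor, by 0.55 and *Nbr1*, a receptor related to p62, by 0.38. Of 14 cullin and neddylation genes 2 passed, both lower in KpCKO, *Cand1*, which exchanges the receptors of cullin ligases, by −0.50 and *Cul4b* by −0.49. Of 12 other ligases and kinases that act on Nrf2 or Nrf1, *Fbxw11*, a β-TrCP protein that marks phosphorylated Nrf2, passed at −0.69. Among 11 genes of proteins that bind Keap1 or act with it, Nrf2 or p62, *Ptma* (prothymosin α) and *Ikbkb* (IKKβ) passed, at −0.52 and −0.41, and the cofactors of Nrf2 that passed included *Rxra*, a nuclear receptor, as higher, at 1.23, and *Ep300*, a histone acetyltransferase, as lower, at −0.48. The medians of these 5 lists in M1 were between −0.16 and 0.11, beside −0.09 for all genes.

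Between Con and M1 in WT, where 63.2% of all genes passed, 43 of the 59 genes of these lists (72.9%) passed, 24 as higher and 19 as lower, so their counts are read here as a description. In the cullin list 9 of 14 genes passed as higher and 1 as lower, led by *Ube2f*, a NEDD8-conjugating enzyme (1.81), *Cul7* (−1.78) and *Cul2* (1.75). In the autophagy list 4 of 12 passed as higher and 6 as lower, led by *Calcoco1* (−2.29), *Nbr1* (−1.84) and *Atg7* (−1.61), an activating enzyme of autophagy. Among the Keap1-binding and related proteins 5 of 11 passed as higher and 4 as lower, led by *Cdkn1a*, whose product p21 binds Nrf2 and competes with Keap1 (5.50), *Sesn1*, a sestrin (−4.83), and *Trim21*, a ubiquitin ligase that acts on p62 (2.99). In the ligase and kinase list 5 of 12 passed as higher and 3 as lower, with *Fbxw11* at 1.50, *Cul1* at 0.87 and *Btrc*, the other β-TrCP gene, at −0.83, and among the cofactors 1 of 10 passed as higher and 5 as lower, with *Rxra* at −3.36.

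For the 6 members whose group means spanned over 1 log2 unit, the genes with the most similar profile were sought among 12107 genes, by the root mean square difference over the 12 arrays after each gene was centred on its mean. The nearest to *Keap1* were *Msr1* (0.350), *Vnn3* (0.357) and *St3gal6* (0.371). For *Nfe2l2* they were *Ifitm2* (0.156), *Tpi1* (0.162) and *Bcl10* (0.171), and for *Nfe2l1* *Riok3* (0.108), *Blcap* (0.179) and *Abr* (0.190). *Mafk* was nearest to *Ube2z* (0.138), *Gtpbp2* (0.151) and *Usp47* (0.152), *Mafg* to *Hba-a1* (0.164), *Zwint* (0.177) and *Adgrg2* (0.184), and *Sqstm1* to *Tent4b* (0.223), *Dsel* (0.267) and *Chpf2* (0.272). These distances describe likeness over these 12 arrays and nothing else.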

How the data were processed

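RNA of BMDMs was labelled for 1-colour Agilent arrays and hybridized on 12 arrays, 2 for each of 6 groups. Agilent Feature Extraction 10.7.3.1 was used by the authors, who deposited the intensity of 43379 spots per array with the local background subtracted and no scaling between arrays, beside flags for detection, saturation (0 probes) and outliers. A deposited matrix of log2 values, normalized with GeneSpring, was compared on 40749 shared probes. It is close to the values used here less the median of each probe (slopes from 0.999674 to 1.00037, median absolute gaps up to 0.020).

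Outlier spots (83 to 292 an array) were dropped, the spots of a probe averaged, and log2 of the intensity was set relative to the array's 75th percentile. The number of arrays limits the precision. By accession 26695 probes were matched to 18221 symbols (RefSeq, GRCm38.p6, used for names and promoter windows). The brightest probe by mean signal stood for a gene, and 22376 genes, each detected on both arrays of 1 group or more, were tested with limma 3.58.1 in R 4.3.3. The model held 6 groups and culture (degrees of freedom 5 residual, 1.92 prior), and the threshold was a Benjamini-Hochberg adjusted p of 0.05. The fit was tested on simulated data. Tables and plots used Python 3.11.15, pandas 2.3.3 and matplotlib 3.10.9.

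Culture 1 and 2 come from the replicate numbers and sexes in the labels and from the description of the series, which puts 1 WT and 1 KpCKO mouse in each culture. Deviations from the group means over 22075 genes correlated between same-numbered arrays at 0.162 to 0.597 (median 0.341) in 15 pairs of groups. Same-numbered arrays also share the sex, and some come from the same mouse, so these correlations cannot show the pairing by culture. Arrays of 1 mouse are not separate animals, and p-values measure the spread between these arrays.

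The genes, the lists and the rule for named genes (of each list, up to 3 genes with the largest change past the test and the same sign in both cultures, else the largest 1) were chosen with earlier results of these data known. Alternatives were quantile normalization, normexp with an offset of 50, the authors' matrix, other filters, probes or means of probes, other variance settings, no culture term, mouse as a random block, only the groups compared, and leaving out each array. Some genes of these lists are not reported here.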

Additional observations from a re-analysis of the deposited data

Results flagged for a closer look

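*Bach1* and *Mafk* were flagged because their difference between KpCKO and WT had opposite signs in Con and in M1 in both cultures. The share of all genes with such a change of sign was not counted, so the flag does not set these genes apart. For *Bach1* the difference was −0.05 in Con, with a 95% interval of −0.59 to 0.49 that leaves its sign open, and 0.49 in M1. The change of the difference, 0.54, did not pass limma's test (95% interval −0.22 to 1.30, adjusted p = 0.437). For *Mafk* the difference was 0.19 in Con and −0.41 in M1, and the change of −0.61 did not pass either (limma, adjusted p = 0.170).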

How the results depend on the processing

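For the calls of single genes, 463 values under an alternative kept their direction and stayed past the test, 92 kept their direction and no longer passed, and 1 reversed, the change of *Rbx1* from Con to M1 in WT, at −0.0141 under quantile normalization. Counts of members that passed moved as follows. Between genotypes, without a filter on dim probes the count fell to 0 in Con and 2 in M1. Of all genes 0.802% and 8.12% passed there. With normexp it was 2 in M1, where 4.82% of all genes passed. With only the groups compared it was 0 in Con, 0 in M1 and 0 in M2. Over the whole series 0 of 22376, 0 of 22358 and 0 of 22371 genes then passed, so this loss is not particular to the members. Without the replicate block by culture 1 member passed in M1 and 2 over the mean of the conditions, *Keap1* and *Nfe2l2*. Of all genes 5.34% and 8.32% passed there. With the mean of each mouse's 3 arrays, a setting added after the data were seen, 0 members passed, and 0 of 22352 genes. Quantile normalization left 3 members in the M1 response of WT and 4 in that of KpCKO, where 64.8% and 52.8% of all genes passed. With 1 array left out at a time, the member counts between genotypes and in the M1 response moved, as did the shares of all genes that passed. The member counts of the M2 response did not move. Each such fit leaves a lone array in a group, so these counts are not read as a result about the members. Without culture 1 of WT M1 the difference in the M1 response of *Cul3* was 1.16. The lone WT M1 array is there assumed to vary like the other groups, as in each fit with 1 array left out. The cause of these changes was not tested. With 2 arrays a group, the M1 genotype calls of *Nfe2l2*, *Mafg* and *Mafk* are the least stable, lost under 15, 14 and 16 of 23 alternatives.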
